A study of Homo sapiens with 8 samples.

Results

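The genes described here encode the protein machinery of pre-mRNA splicing, namely SR proteins, heterogeneous nuclear ribonucleoproteins (hnRNPs), Sm and other proteins of the small nuclear ribonucleoproteins (snRNPs), subunits of SF3A, SF3B and U2AF, and proteins of the PRPF and LUC7L series. They were taken by symbol stem (SRSF, SF3A, SF3B, HNRNP, SNRP, PRPF, U2AF and LUC7L) from the deposited table, and 72 of its 11530 genes qualified. A further 17 genes with the same symbol stems were left out because their symbols end as pseudogene symbols do. Bulk RNA was sequenced in 8 libraries of the human cell line MonoMac 6, which is established from an acute monocytic leukaemia. The 4 libraries of the APRIL group came from cells cultured for 24 h with human APRIL, a ligand of the TNF family encoded by TNFSF13, at 100 ng/mL in serum-free RPMI. The 4 control libraries came from cells without APRIL, and cytokines that the series text calls baseline, without naming them, were present with and without APRIL. The protocols give 10% fetal bovine serum for the routine cultures and leave unsaid which medium the control cells had, so APRIL and a change of serum cannot be told apart. The libraries are of 1 cell line, and the labels do not say whether they are separate cultures, so the p-values take up only library-to-library spread, part or all of which can be technical.

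Introns are removed by the spliceosome, which is assembled anew on each intron from snRNPs and many other proteins. The U1 snRNP pairs with the 5′ splice site, U2AF reads the 3′ splice site, and the U2 snRNP with its SF3A and SF3B proteins binds the branch point, after which the tri-snRNP of U4, U6 and U5 joins and the PRP19 complex helps to activate the assembly. SR proteins bound to exons generally promote the use of nearby splice sites, and hnRNPs often oppose it. In myeloid leukaemia several of these genes, SF3B1, SRSF2 and U2AF1 among them, are known targets of recurrent mutation, about which expression values say nothing.

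Values are log2 and scaled per library, and a change is APRIL minus control with its standard error. By limma, a linear model fitted across all genes, 0 splicing genes passed the threshold of 0.05 after Benjamini-Hochberg adjustment. With voom on recovered reads 0 of 56 did so, and PRPF38B, HNRNPA2B1 and SF3B1 had no recovered reads for that fit. Limma tested 71 of the 72 genes, 33 with a positive and 38 with a negative change. Their median change was -0.026, against -0.005 over all 11257 genes tested. Over all genes 49.3% of changes were positive and 0.0% passed the adjusted threshold. At an unadjusted p under 0.05 there were 8 splicing genes lower with APRIL, 11.3% of those tested against 5.69% of all genes, and 1 gene higher, 1.41% against 6.25%. The smallest adjusted p of a splicing gene was 0.3999, and it was 0.123 to 0.654 over the alternatives. The lower genes numbered 4 when APRIL column 3 or control column 3 was omitted, 3 when APRIL column 4 or control column 1 was, and 2 once the dependence of each library on transcript length and GC content had been subtracted (called trends removed from here on). Such counts need not hold the same genes. The 2 with trends removed were PRPF38B and HNRNPUL1, and HNRNPUL1 was not among the 8 as deposited. The higher genes numbered 3 when APRIL column 2 was omitted, and 0 when APRIL column 4 or any of control columns 1, 3 and 4 was. The 4 APRIL values lay wholly below the 4 control values for 7 splicing genes (9.86%, against 4.19% of all genes) and wholly above for 2 (2.82%, against 3.62%). The median 95% half-width of a splicing gene's change was 0.34, and 32 of the 71 intervals lay within 0.5 log2 units of 0.

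**Figure D1:**
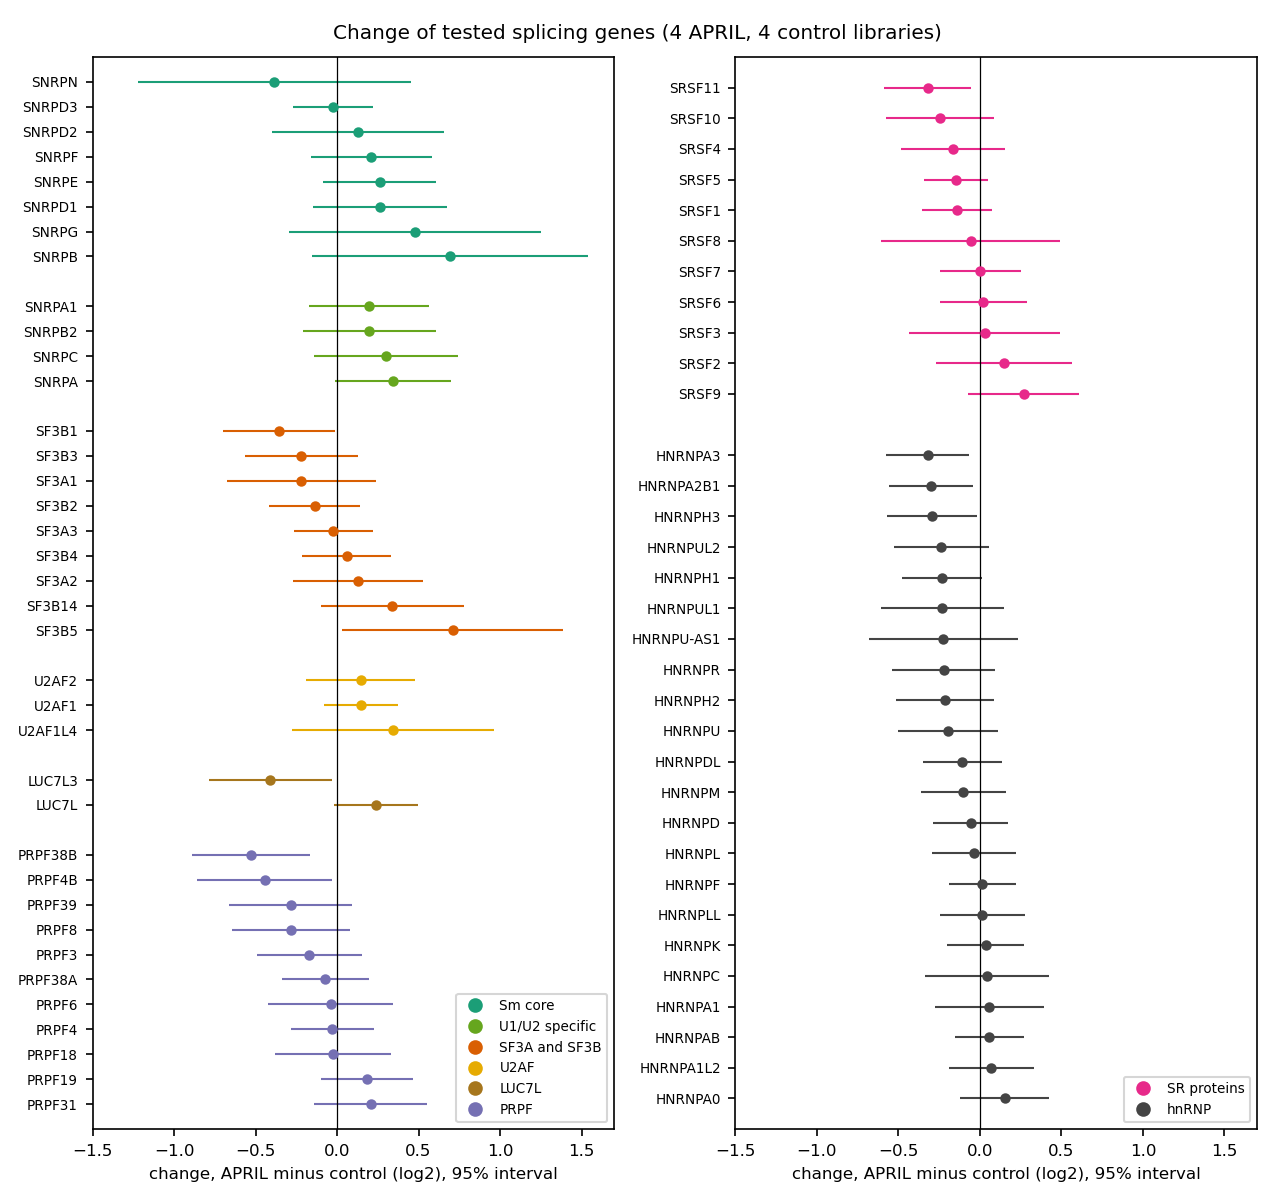
Change of the tested splicing genes shown, APRIL minus control on the log2 scale (x axis), by gene (y axis) and coloured by class. Points are limma estimates from 4 libraries per group and bars are 95% intervals. The U1- and U2-specific proteins and U2AF lie right of 0, most PRPF genes lie left of it, and most intervals cross 0.

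Depth and library composition differed between the columns of the table, which carry a group and no replicate number and are called column 1 to 4 by their order. Reads recovered from the values ranged from 929633 in APRIL column 3 to 5318315 in APRIL column 2, over the 96.8% of genes for which whole reads could be recovered. For 48 of the 71 tested splicing genes, APRIL column 3 was the library farthest from the gene's mean, and control column 1 was for 11. APRIL column 3 was the highest of all 8 libraries for 25 splicing genes and the lowest for 28. Of the 12 markers of the monocytic line, 11 were in the table, among them LYZ, MPO, CD14 and CD33, and their summed linear values ran from 1400 to 1850 with APRIL and from 1500 to 1560 in control. Values were at hand for 0 of 5 erythroid markers, 0 of 9 epithelial, endothelial and fibroblast markers, 2 of 7 T and NK cell markers and 5 of 7 B cell markers, whose sums ran from 141 to 212 with APRIL and from 140 to 175 in control. The T and NK cell sum, nearly all of it NKG7 on the scale of these values, ran from 1860 to 4690 with APRIL and from 1720 to 1950 in control. Its part in the results was not tested. Bulk values are relative to all RNA of a library, so fewer cells with a transcript and less of it per cell cannot be told apart. Levels are not compared between genes, because each gene's values carry a divisor of its own that is unrelated to a stated length. The marker sums add genes on such unlike scales, so they set libraries side by side and do not measure how much of a cell type was present.

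**Figure D2:**
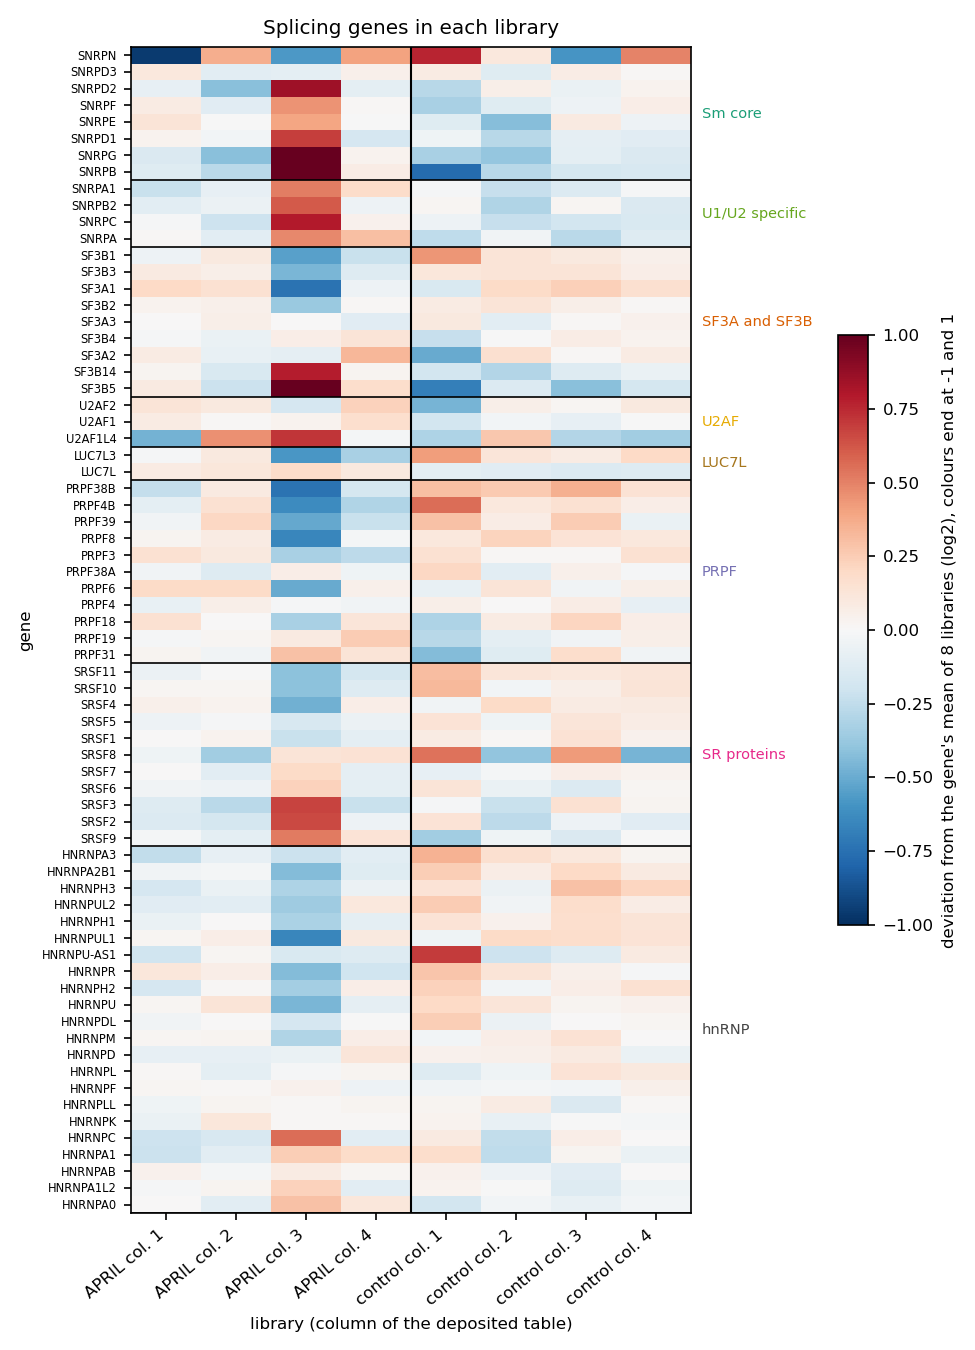
Deviation of the tested splicing genes shown (rows, grouped by class) from their own means over 8 libraries (columns), on the log2 scale with colours ending at -1 and 1. APRIL column 3 stands out in opposite directions, above the mean for most Sm and U1- or U2-specific proteins and below it for most PRPF genes.

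Printed next are the bases before the transcription start of PRPF38B and HNRNPA3, which had the smallest p among the genes lower with APRIL, and of SF3B5 and SNRPB, which had the largest positive changes. They were chosen after their values were seen. The sequences are from RefSeq on GRCh38.p14, 250 bases each, read 5′ to 3′ on the gene's strand. PRPF38B is at chr1:108692060-108692309 on the plus strand, HNRNPA3 at chr2:177212544-177212793 on the plus strand, SF3B5 at chr6:144095574-144095823 on the minus strand and SNRPB at chr20:2470790-2471039 on the minus strand. Capitals mark matches on either strand to the CCAAT box (CCAAT), the TATA box (TATAAA), the GC box (GGGCGG), the ETS core (CCGGAAG), the E-box (CACGTG) or the CRE (TGACGTCA), none of which overlap one another in these windows.
PRPF38B: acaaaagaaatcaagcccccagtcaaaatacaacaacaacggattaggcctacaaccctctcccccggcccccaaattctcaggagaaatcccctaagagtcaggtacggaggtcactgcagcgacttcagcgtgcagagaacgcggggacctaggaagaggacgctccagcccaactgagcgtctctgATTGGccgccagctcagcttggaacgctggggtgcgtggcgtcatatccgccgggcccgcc
HNRNPA3: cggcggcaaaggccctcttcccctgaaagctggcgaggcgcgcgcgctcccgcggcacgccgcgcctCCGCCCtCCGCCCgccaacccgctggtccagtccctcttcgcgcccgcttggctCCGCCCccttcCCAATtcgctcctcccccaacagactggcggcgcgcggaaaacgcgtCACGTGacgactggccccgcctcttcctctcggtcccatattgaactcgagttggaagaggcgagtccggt
SF3B5: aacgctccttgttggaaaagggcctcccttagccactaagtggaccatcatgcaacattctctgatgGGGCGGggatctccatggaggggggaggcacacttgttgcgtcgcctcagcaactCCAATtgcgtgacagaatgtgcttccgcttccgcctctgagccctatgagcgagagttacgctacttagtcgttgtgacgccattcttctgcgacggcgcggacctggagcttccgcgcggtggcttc
SNRPB: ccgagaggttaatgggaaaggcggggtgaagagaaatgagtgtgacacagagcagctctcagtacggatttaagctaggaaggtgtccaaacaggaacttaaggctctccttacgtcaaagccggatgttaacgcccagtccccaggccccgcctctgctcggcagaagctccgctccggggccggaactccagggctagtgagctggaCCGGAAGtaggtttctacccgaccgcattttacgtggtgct
The windows of PRPF38B, HNRNPA3 and SF3B5 each held 1 CCAAT match, HNRNPA3 also held 3 GC boxes and 1 E-box, and SF3B5 1 GC box. SNRPB held 1 ETS core and no other match. RefSeq windows were matched for 61 of the 71 tested members, 84 windows in all. The ETS core stood in 26.2% of these windows, against 15.4% of the windows of all tested genes and 8.52% of all windows, and the GC box in 50.0%, against 64.0% and 42.6%. CCAAT was found in 39.3% (33.0% and 32.0%), TATAAA in 8.33% (5.48% and 10.7%) and the E-box in 10.7% (8.58% and 6.34%), while the CRE was in 0 of the 84 (2.51% and 1.65%). A match describes these letters and is not a measured binding site.

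Sm core proteins, which form the ring around each spliceosomal snRNA, had a positive change in 6 of 8 members (5 of 8 with trends removed), with a median of +0.24 and 0 members at an unadjusted p under 0.05. Without APRIL column 3 the median was +0.072, and with trends removed it was +0.094. SNRPB, which encodes the ring proteins SmB and SmB′, stood at 9.95, 9.80, 11.76 and 10.14 in APRIL columns 1 to 4 and at 9.30, 9.79, 9.89 and 9.91 in the control columns. APRIL column 3 was well above the other 7 libraries, which overlapped. The change of SNRPB was +0.69 ± 0.38 (adjusted p = 0.4068), or +0.24 without APRIL column 3. Recovered reads of SNRPB were 2089 in APRIL column 3 and 2011 in APRIL column 1, although the latter library held 2839474 reads in all. SNRPG, another ring protein, was also high in that library, at 7.20, whereas the rest of the APRIL group spanned 5.31 to 5.76 and the control group 5.34 to 5.63, and its change of +0.48 ± 0.35 became +0.064 without it. SNRPE, SNRPD1, SNRPF and SNRPD2 had changes of +0.26 ± 0.15, +0.27 ± 0.19, +0.21 ± 0.17 and +0.13 ± 0.24. These were +0.17, +0.081, +0.097 and -0.13 without APRIL column 3. The ring protein SNRPD3 had a narrow range of 0.22 log2 units over all 8 libraries and a change of -0.026 ± 0.11. SNRPN, an imprinted gene whose protein can replace SmB and which shares its transcript with SNURF, gave -0.39 ± 0.38 on 2 to 30 reads per library, too few to place it.

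Proteins specific to the U1 or the U2 snRNP had a positive change in 4 of 4 genes, or 3 of 4 with library quality weights (median +0.25, and +0.074 without APRIL column 3 or +0.14 with trends removed). SNRPA, which binds a stem loop of U1 snRNA, stood at 4.26, 4.14, 4.73 and 4.55 in APRIL columns 1 to 4 and at 3.99, 4.21, 3.98 and 4.12 in control. The groups overlapped through APRIL column 2 and control column 2. The change of SNRPA was +0.34 ± 0.16 (adjusted p = 0.3999), +0.24 without APRIL column 3 and +0.021 with trends removed. SNRPC, which supports the pairing of U1 with the 5′ splice site, gave +0.30 ± 0.20, and the U2 proteins SNRPA1 and SNRPB2 each gave +0.20, with standard errors of 0.17 and 0.18. Without APRIL column 3 the changes of SNRPC, SNRPA1 and SNRPB2 were +0.089, +0.059 and +0.026.

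The SF3A and SF3B subunits, which bind as part of the U2 snRNP at the branch point, were split in direction. Of these 9 genes 4 lay above 0 and 5 below it (median -0.023). At an unadjusted p under 0.05 there was 1 of the 9 in each direction, against 6.25% of all genes higher and 5.69% lower. SF3B5, a small structural subunit of SF3B, was the 1 splicing gene counted as higher. The APRIL columns 1 to 4 held values of 6.39, 6.08, 7.66 and 6.47 for SF3B5, and the control columns 5.61, 6.16, 5.88 and 6.12. APRIL column 3 was far above the rest, and the other libraries of the groups overlapped. The change of SF3B5 was +0.71 ± 0.30 (adjusted p = 0.3999), and it was +0.37 without APRIL column 3, +0.26 without that library and control column 1, and +0.30 with trends removed. SF3B1, the large scaffold subunit that clamps the branch point helix, had APRIL column 3 at the other end. The APRIL columns 1 to 4 held values of 9.86, 10.01, 9.37 and 9.69 for SF3B1, and the control columns 10.35, 10.04, 10.01 and 9.96. APRIL column 3 was the lowest library and control column 1 the highest, and the groups overlapped through APRIL column 2. The change of SF3B1 was -0.36 ± 0.16 (adjusted p = 0.3999), and it was -0.24 without APRIL column 3 and -0.099 with trends removed. Between these ends lay SF3B14 (the branch point contact now named SF3B6) at +0.34 ± 0.20, SF3A2 at +0.13 ± 0.18, SF3B4 at +0.058 ± 0.12, SF3A3 at -0.023 ± 0.11, SF3B2 at -0.14 ± 0.12, SF3A1 at -0.22 ± 0.20 and SF3B3 at -0.22 ± 0.16. The changes of SF3B14, SF3B2, SF3A1 and SF3B3 were +0.13, -0.035, -0.0080 and -0.10 without APRIL column 3. After trend removal SF3A2 and SF3B4 turned to -0.33 and -0.14. The transcripts of SF3B5 and SF3B14 are the shortest of the class (693 and 770 bases for the longest transcript), and those of SF3B3 and SF3B1 the longest (9720 and 6526 bases).

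U2AF subunits, which recognise the end of the intron, had a positive change in 3 of 3 genes, or 2 of 3 with trends removed or with library quality weights. U2AF1, the small subunit that contacts the AG of the 3′ splice site, stood at 8.97, 8.90, 8.93 and 9.06 in APRIL columns 1 to 4 and at 8.71, 8.86, 8.81 and 8.89 in control. All APRIL values lay above all control values, by a small margin between APRIL column 2 and control column 4. The change of U2AF1 was +0.15 ± 0.10 (adjusted p = 0.4678), +0.33 after trend removal and +0.11 to +0.17 with any 1 library omitted. Trend removal used the longest transcript of U2AF1, 4694 bases, which need not be the one expressed. The 8 values of U2AF1 spanned 0.34 log2 units, against 2.46 for SNRPB. U2AF2, the large subunit that binds the polypyrimidine tract, gave +0.15 ± 0.15 (-0.077 with trends removed), with control column 1 the lowest library at 9.61. The related U2AF1L4 gave +0.34 ± 0.28 on 10 to 55 reads per library, or +0.16 without APRIL column 3.

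LUC7L proteins are relatives of a yeast U1 component and affect the choice of 5′ splice sites, and the 2 genes measured had changes of opposite sign. LUC7L3 stood at 5.99, 6.10, 5.42 and 5.68 in APRIL columns 1 to 4 and at 6.42, 6.12, 6.08 and 6.20 in control. APRIL columns 3 and 4 were low, while APRIL column 2 overlapped the control values. The change of LUC7L3 was -0.41 ± 0.17 (adjusted p = 0.3999), or -0.12 with trends removed. LUC7L, between 4.57 and 4.67 with APRIL and between 4.35 and 4.39 in control, lay wholly above control. This difference was small but even across the libraries, +0.24 ± 0.12 (adjusted p = 0.3999), +0.16 after trend removal and +0.22 to +0.25 with any 1 library omitted. A difference between the LUC7L and LUC7L3 changes was not tested.

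PRPF proteins, many of them parts of the tri-snRNP or helpers of its assembly, had a negative change in 10 of 12 genes, with a median of -0.12. At an unadjusted p under 0.05, 2 of the 12 were lower, against 5.69% of all genes. The median was -0.098 without APRIL column 3, where 4 changes were above 0, -0.058 without that library and control column 1, and -0.10 with trends removed. PRPF38B, a protein related to the spliceosome activation factor PRPF38A, had the smallest unadjusted limma p of any splicing gene. PRPF38B was at 10.60, 10.93, 10.10 and 10.66 in APRIL columns 1 to 4 and at 11.14, 11.10, 11.19 and 10.98 in control. All APRIL values lay below all control values, with APRIL column 3 the lowest. The change of PRPF38B was -0.53 ± 0.16 (adjusted p = 0.3999), -0.37 without APRIL column 3, -0.36 without that library and control column 1, and -0.39 with trends removed. PRPF38A itself gave -0.072 ± 0.12.

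PRPF4B, a kinase that phosphorylates tri-snRNP proteins, stood at 6.09, 6.34, 5.56 and 5.89 in APRIL columns 1 to 4 and at 6.75, 6.30, 6.34 and 6.26 in control. APRIL column 2 overlapped the control values, and control column 1 was above the other controls. The change of PRPF4B was -0.44 ± 0.19 (adjusted p = 0.3999), or -0.20 without APRIL column 3 and control column 1 and -0.16 with trends removed. PRPF8, the U5 protein at the catalytic centre, lay wholly below control at -0.28 ± 0.16, or -0.11 without APRIL column 3. PRPF39, a relative of a yeast U1 protein, gave -0.29 ± 0.17, or -0.16 without APRIL column 3. The U4/U6 proteins PRPF3 and PRPF4 gave -0.17 ± 0.14 and -0.030 ± 0.11, the U5 protein PRPF6 gave -0.040 ± 0.17 and the second-step factor PRPF18 gave -0.026 ± 0.16. With APRIL column 3 omitted, PRPF3, PRPF6 and PRPF18 were at -0.092, +0.12 and +0.077. The positive changes were those of PRPF19, the ubiquitin ligase of the PRP19 complex, at +0.18 ± 0.13, and of the U4/U6 protein PRPF31 at +0.21 ± 0.16. Both had the opposite sign with trends removed, at -0.040 and -0.052.

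Of 11 SR proteins 5 lay above 0 and 6 below it (median -0.057). At an unadjusted p under 0.05, 1 of the 11 was lower, against 5.69% of all genes. Without APRIL column 3 it was SRSF9 alone that lay above 0 (1 of 11, median -0.090), and after trend removal 7 did (median +0.083). SRSF11, an SR-related protein also known as p54, stood at 9.57, 9.63, 9.22 and 9.46 in APRIL columns 1 to 4 and at 9.94, 9.75, 9.74 and 9.75 in control. The APRIL values lay wholly below control, where columns 2 to 4 were nearly equal and column 1 was higher. The change of SRSF11 was -0.32 ± 0.12 (adjusted p = 0.3999), -0.24 without APRIL column 3 and -0.13 with trends removed. SRSF9, which can antagonise other SR proteins at splice sites, had the largest positive change of the class at +0.27 ± 0.15, or +0.14 without APRIL column 3.

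Most other SR proteins had smaller changes. SRSF1, the first described of the family, gave -0.14 ± 0.10 and SRSF5 -0.15 ± 0.09, with ranges of 0.37 and 0.30 log2 units over the 8 libraries. SRSF7 and SRSF6 gave +0.0020 ± 0.11 and +0.022 ± 0.12, with 95% half-widths of 0.25 and 0.27. SRSF3 and SRSF2 were high in APRIL column 3, at 7.51 and 10.65, while the rest of the APRIL group reached 6.70 and 9.94, and their changes of +0.030 ± 0.21 and +0.15 ± 0.19 were -0.19 and -0.045 without it. SRSF4 gave -0.17 ± 0.14 and SRSF10, which acts as a repressor when dephosphorylated, gave -0.24 ± 0.15, or -0.035 and -0.15 without APRIL column 3. SRSF8, an expressed retrocopy related to SRSF2 whose reads may be shared with it, gave -0.057 ± 0.25 on 7 to 34 reads per library.

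**Figure D3:**
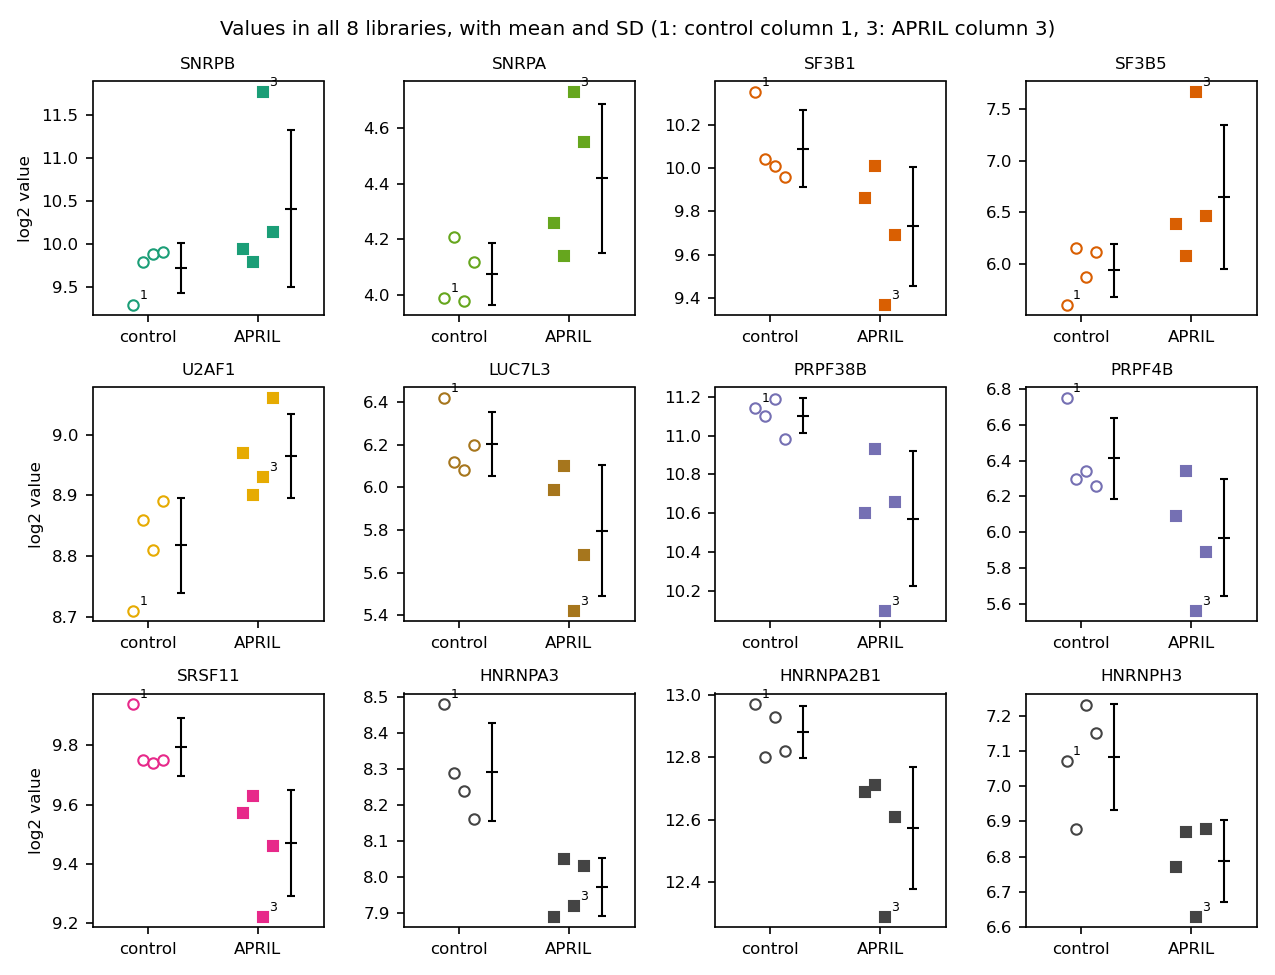
Log2 values (y axis) of 12 splicing genes in the 4 control libraries (open circles) and the 4 APRIL libraries (filled squares), with the mean and SD of each group. The numerals 1 and 3 mark control column 1 and APRIL column 3. PRPF38B, SRSF11, HNRNPA3, HNRNPA2B1 and HNRNPH3 with APRIL lie below control and U2AF1 lies above it, while SNRPB and SF3B5 are highest in APRIL column 3.

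Of the hnRNP genes 22 of 23 were tested, 8 of them above 0 and 14 below it (median -0.10). At an unadjusted p under 0.05, 3 of the 22 were lower and 0 higher, against 5.69% and 6.25% of all genes. The median was -0.060 without APRIL column 3 and +0.0060 after trend removal, when 11 of 21 lay above 0. In the A and B group, which binds RNA through paired recognition motifs and a glycine-rich tail, HNRNPA3 stood at 7.89, 8.05, 7.92 and 8.03 in APRIL columns 1 to 4 and at 8.48, 8.29, 8.24 and 8.16 in control. The APRIL values lay wholly below control, and APRIL column 3 was not the extreme library. The change of HNRNPA3 was -0.32 ± 0.12 (adjusted p = 0.3999), and it was -0.31 without APRIL column 3 but -0.061 with trends removed. HNRNPA2B1, which also takes part in RNA transport, stood at 12.69, 12.71, 12.29 and 12.61 in APRIL columns 1 to 4 and at 12.97, 12.80, 12.93 and 12.82 in control. Again no APRIL value reached the control values. The change of HNRNPA2B1 was -0.30 ± 0.12 (adjusted p = 0.3999), -0.21 without APRIL column 3 and -0.041 with trends removed.

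Other genes of the A and B group had positive changes as deposited. Their difference from HNRNPA3 and HNRNPA2B1 was not tested. HNRNPA1, a repressor of many exons, gave +0.059 ± 0.15, HNRNPA0 gave +0.15 ± 0.12 and HNRNPAB +0.059 ± 0.10. HNRNPA1 was at -0.012 and HNRNPA0 at +0.082 without APRIL column 3, while after trend removal HNRNPA0 was at +0.45. Outside that group, HNRNPD (AUF1), known for its role in decay of AU-rich mRNAs, and the related HNRNPDL gave -0.057 ± 0.10 and -0.11 ± 0.11. HNRNPA1L2, a retrocopy of HNRNPA1, gave +0.071 ± 0.12, and HNRNPA1 and its copies can share reads, so their values are uncertain.

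In the F and H group, which binds runs of G, HNRNPH3 stood at 6.77, 6.87, 6.63 and 6.88 in APRIL columns 1 to 4 and at 7.07, 6.88, 7.23 and 7.15 in control. The separation of the groups rested on less than the printed digits between APRIL column 4 and control column 2. The change of HNRNPH3 was -0.29 ± 0.13 (adjusted p = 0.3999), or -0.19 with trends removed. HNRNPH1 lay wholly below control as well, at -0.23 ± 0.11, but gave +0.029 with trends removed, and HNRNPH2 gave -0.22 ± 0.14, or -0.14 without APRIL column 3. Their relative HNRNPF was the steadiest of all splicing genes, with a range of 0.10 log2 units over 8 libraries and a change of +0.015 ± 0.09.

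The U group, which includes large nuclear scaffold proteins, gave -0.20 ± 0.14 for HNRNPU, -0.23 ± 0.17 for HNRNPUL1 and -0.24 ± 0.13 for HNRNPUL2. Without APRIL column 3 these were -0.076, -0.052 and -0.16, and with trends removed +0.16, -0.31 and -0.15. The antisense RNA HNRNPU-AS1 matched the symbol rule without encoding a protein and gave -0.23 ± 0.21, and reads of a gene and its antisense partner cannot be told apart with a kit that does not mark the strand. The readthrough HNRNPUL2-BSCL2, on 2 to 37 reads per library, was the gene left out by the floor on low values. HNRNPK, HNRNPL, HNRNPLL, HNRNPC, HNRNPM and HNRNPR gave +0.035 ± 0.11, -0.035 ± 0.12, +0.016 ± 0.12, +0.044 ± 0.17, -0.10 ± 0.12 and -0.22 ± 0.14. HNRNPC, which measures RNA length and guards poly(U) tracts, was high in APRIL column 3 at 13.52 and gave -0.13 without it, and HNRNPM and HNRNPR gave -0.015 and -0.12 without that library. Pseudogene rows can hold reads of their parent genes, which leaves the values of genes such as HNRNPA3, HNRNPC and HNRNPK uncertain. Of the 17 left out, 16 were tested, 6 with a positive and 10 with a negative change (median -0.18, or -0.14 without APRIL column 3). HNRNPA3P6 and HNRNPUP1, chosen for mention after their values were seen, gave -0.36 ± 0.17 and -0.46 ± 0.20, and HNRNPA3P6 gave -0.22 without APRIL column 3.

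**Figure D4:**
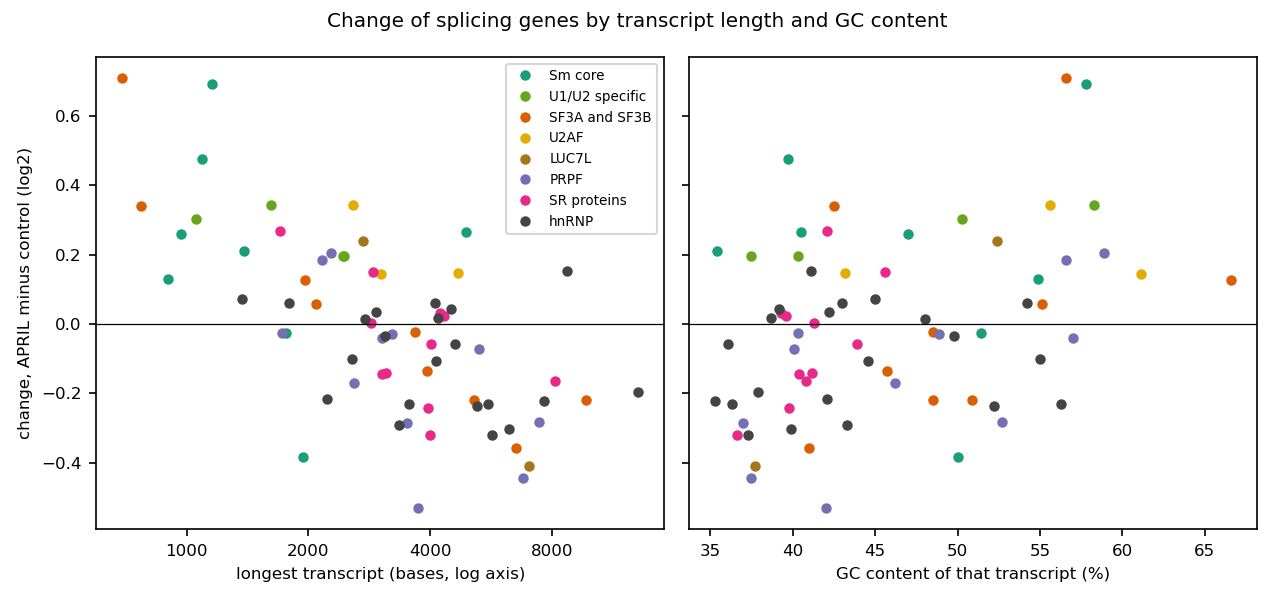
Change of the splicing genes, APRIL minus control on the log2 scale (y axis), against the longest GENCODE transcript in bases (left, log axis) and its GC content in percent (right), coloured by class. Short transcripts lie mostly above 0 and long ones mostly below it.

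Transcript length, a property that the symbol rule did not use, went along with the changes. Over 70 tested members with a transcript in GENCODE 29, Spearman's rho of the change with the length of the longest transcript was -0.64, and with its GC content 0.36. Over 10782 tested genes the same values were -0.54 and 0.51. Genes share libraries and are not independent replicates, so these are descriptions. Without APRIL column 3 the members gave -0.58 and 0.52, and without that library and control column 1 they gave -0.53 and 0.40. All genes gave -0.37 and 0.65 without APRIL column 3 and -0.32 and 0.41 without both. Of the 23 splicing genes with the shortest transcripts (693 to 2568 bases) 18 had a positive change (median +0.20), and of the 23 with the longest (4173 to 13084 bases) 7 did (median -0.22). Without APRIL column 3 these medians were +0.077 and -0.11. After trend removal 18 of 70 members had the opposite sign.

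**Figure D5:**
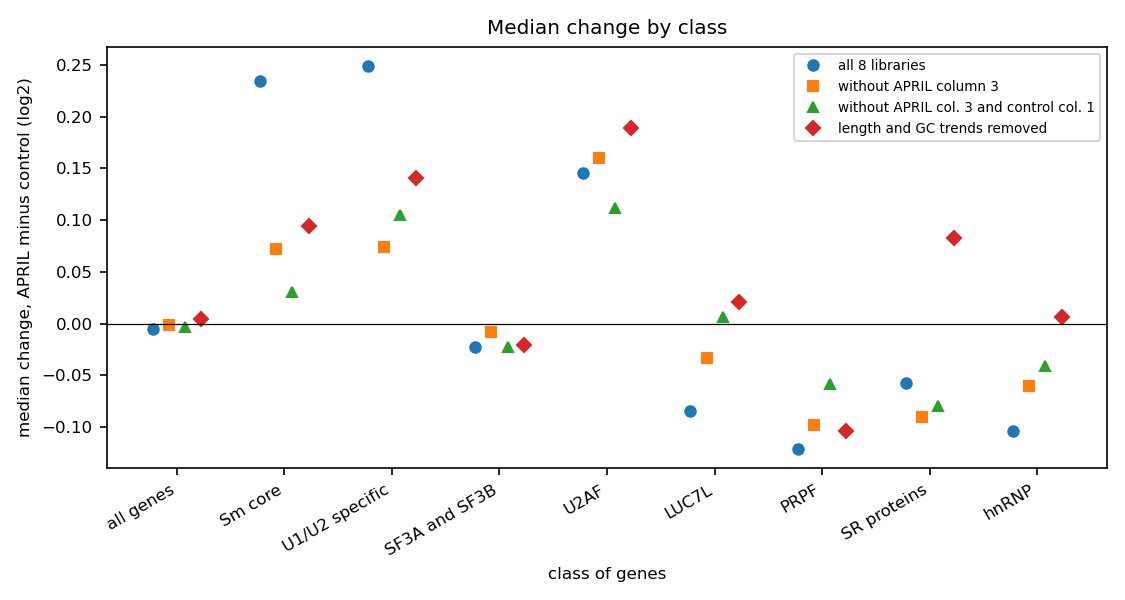
Median change of each class of splicing genes and of all tested genes (x axis), on the log2 scale (y axis), under 4 treatments of the data. The Sm core and U1- or U2-specific medians are at or above +0.23 with all libraries and below +0.11 without APRIL column 3, with or without control column 1.

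Genes of the same pathway outside the symbol rule were taken from 9 lists by function. Of 170 tested, 65 lay above 0 and 105 below it (median -0.051), and at an unadjusted p under 0.05 there were 3 higher (1.76%, against 6.25% of all genes) and 20 lower (11.8%, against 5.69%), with 0 past limma's adjusted threshold. LSM proteins, most of which form the ring of U6 snRNA or of the decay machinery, had a positive change in 9 of 10 (median +0.24). This was 6 of 10 without APRIL column 3 (median +0.099) and 7 of 10 with trends removed. By symbol the 10 include NAA38 and not LSM8. The annotation is not given, so the gene under the symbol NAA38 may be LSM8 by an older name. The length of NAA38 was taken by symbol, so its change of -0.35 with trends removed is uncertain. LSM10, a ring protein of the histone-processing U7 snRNP, gave +0.55 ± 0.25 (+0.31 without APRIL column 3 and +0.14 with trends removed), and its partner LSM11 gave -0.24 ± 0.22 (-0.010 with trends removed). Kinases and phosphatase regulators of splicing factors had a negative change in 11 of 12 (median -0.20, or -0.088 without APRIL column 3, where 3 were above 0, and -0.052 with trends removed, where 4 were). That list also took in TNPO3, which is neither, at -0.28 ± 0.21. The kinase DYRK1A lay wholly below control at -0.45 ± 0.14, or -0.10 with trends removed, and the phosphatase regulator PPP1R8 gave +0.085 ± 0.14.

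Exon junction complex and SR-related proteins had 9 positive and 14 negative changes, with 4 lower at an unadjusted p under 0.05 (17.4%, against 5.69% of all genes). PNN, a nuclear speckle protein, gave -0.56 ± 0.19 and lay wholly below control, with -0.36 when APRIL column 3 was omitted. The export adaptor ALYREF gave +0.36 ± 0.20, or +0.16 without APRIL column 3 and -0.014 with trends removed. Of 39 other splicing regulators 29 had a negative change as deposited, but 23 of 39 a positive one with trends removed. In that list 7 were lower at an unadjusted p under 0.05 (17.9%, against 5.69% of all genes), including RBM25 at -0.54 ± 0.19, or -0.26 with trends removed. The hnRNP C relative RALY was higher at +0.45 ± 0.16 and lay wholly above control. Catalytic step proteins gave SLU7, a factor in 3′ splice site choice, at -0.45 ± 0.15 and PQBP1 at +0.42 ± 0.13, the latter +0.077 with trends removed. In the minor spliceosome ZRSR2, which reads the 3′ splice site of rare introns, gave -0.56 ± 0.25 on 7 to 52 reads per library. The change of ZRSR2 was -0.66 to -0.38 with any 1 library omitted, and ZCRB1 gave +0.43 ± 0.17. Of proteins beside those of the symbol rule in the major snRNPs, HTATSF1 gave -0.38 ± 0.16 and PUF60, a partner of U2AF, +0.42 ± 0.19. The change of PUF60 was +0.27 without APRIL column 3 and +0.099 with trends removed. The SMN complex loads Sm rings onto snRNAs, and its list also took in COIL, PRMT5, WDR77 and CLNS1A, which are not parts of it. Of the 14 genes listed 7 changes were positive and 7 negative. GEMIN7 gave +0.43 ± 0.28 (+0.14 without APRIL column 3) and COIL -0.15 ± 0.16. Nonsense-mediated decay factors had a negative change in 9 of 10 (median -0.17), and without APRIL column 3 in all but 3 of the 10 (median -0.051). UPF2 gave -0.49 ± 0.22, or -0.27 without that library, and UPF1 gave +0.025 ± 0.14, or -0.049 with trends removed.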

How the data were processed

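RNA of 8 libraries, 4 APRIL and 4 control, was sequenced after preparation with the TruSeq RNA v2 kit, per the labels' protocols. That kit enriches poly(A) RNA and keeps no strand information. The build hg19 and the tools bcl2fastq and TopHat2 2.0.13 stand in the list of the submitters' processing notes. How reads were assigned to genes, and with which annotation, is not given in the sources used here, nor is any gene filter. The authors deposited log2 values scaled by a TMM factor per library, per the file headers, running from -4.96 to 15.4. All 8 columns were used as deposited.

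Each gene was tested with limma 3.58.1 (R 4.3.3) with intensity trend and robust variance, two-sided, with Benjamini-Hochberg adjustment over 11257 genes. These reached 1 on the linear scale in 4 or more libraries, and 273 genes did not. Because each gene carries its own divisor, neither this floor nor the intensity trend follows the number of reads. SNRPN was kept on 2 to 30 reads per library, and HNRNPUL2-BSCL2 was left out on 2 to 37. Reads were recovered for genes whose 8 values all fitted log2 of an integer read number with 0.5 added, divided by an integer specific to the gene (11157 of 11530 genes, 57 of 72 members, and 0 of 500 genes with moved constants). These reads gave the depth and a voom alternative. When tested on simulated data (11257 genes, noise drawn gene by gene), limma recovered 65% of changes sized 1 on the log2 scale and 95% of changes sized 2. Changes of the sizes seen in splicing genes, -0.53 to +0.71, were not simulated, so the sensitivity to them is unknown. The simulated noise was independent between genes, whereas APRIL column 3 was the farthest library for 48 of the 71 members tested. Lengths and GC contents are of the longest GENCODE 29 transcript by symbol, and trends were removed per library with splines of 4 degrees of freedom over 10782 genes. The longest was taken whatever its type and need not be the transcript expressed in these cells. Changes of single genes with trends removed are uncertain for that reason. The alternatives were other variance models, weights, filters and scalings, voom, trend removal and libraries left out.

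Members and lists were chosen with earlier results of these data known. The genes named are members at an unadjusted p under 0.05 and, per class and list, the smallest p in each direction. All values are printed for the first of these and for the leading gene of each class without one. Other members are given by their change, and 1 is counted but not reported here by itself. Tables and figures were made in Python 3.11.15 with matplotlib 3.10.9, pandas 2.3.3, scipy 1.17.1 and numpy 2.4.6.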

Additional observations from a re-analysis of the deposited data

Results flagged for a closer look

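Among the 12 splicing genes given in full, 24 groups of 4 libraries were looked at for a library far from the others, of which chance marks about 1 in 20. SRSF11 in control column 1, at 9.94, stood apart from the other control libraries, the nearest of which was at 9.75 so that the gap took up 0.933 of the group's whole range, past Dixon's critical value. It was the only such group.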

How the results depend on the processing

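No paired analysis was possible because the columns of the table carry no replicate numbers. Under every alternative 0 splicing genes passed the adjusted threshold. Over all genes limma called 0 as deposited and 4 with library quality weights, none of them a splicing gene. These weights gave APRIL column 3 a weight of 0.117. Splicing genes higher at an unadjusted p under 0.05 numbered 1 as deposited, 2 with quality weights, 2 with voom on recovered reads (56 members), 2 with trends removed and 0 to 3 when each library was left out. The 2 higher with trends removed were U2AF1 and HNRNPA0, and SF3B5 was not among them. Lower splicing genes numbered 8 as deposited, 5 with voom, 2 with trends removed (PRPF38B of the 8, and HNRNPUL1), 4 without APRIL column 3 and control column 1 together and 3 to 9 when each library was left out. Of the 8, PRPF38B, HNRNPA2B1 and SF3B1 had no recovered reads and were outside the voom fit. The members' median change was -0.026 as deposited, 0.001 with voom, -0.050 with quantile normalization, -0.001 with trends removed and -0.047 to -0.008 when each library was left out. Of 590 values of 35 named genes under the alternatives, 583 kept their direction and none passed the threshold. The sign turned for PRPF19 (-0.040), ALYREF (-0.014) and UPF1 (-0.049) with trends removed, and with libraries left out for PPP1R8 (-0.028 to +0.148, negative without APRIL column 3) and UPF1 (-0.067 to +0.11). Causes were not tested beyond what an alternative itself removes. The shallowest library, at a median of 40 reads per gene, limits the precision of low members such as SNRPN, U2AF1L4 and SRSF8.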
